A study of Oryza sativa Japonica Group with 6 samples.

Results

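The comparison set shoots of rice seedlings held at 11 °C for 24 h against shoots held at 25 °C, across a selection of the pathways with named genes in the table. All seedlings were of the japonica rice cultivar Lijiangxintuanheigu (LTH), 2 weeks old, and RNA came from their stems and leaves. The 11 °C group, the milder 13 °C group and the 25 °C group each had 2 libraries, which the series design calls biological replicates. No source gives the number of seedlings in a library or the hour of collection, so an effect of the time of day cannot be told apart from one of temperature. The members were the 19429 loci of 32150 written in mixed case that reached 1 RPKM (reads scaled to locus length and sequencing depth) in at least 2 of the 6 libraries, out of 55800 loci in the table. A description from a best protein match was present for 13465 of them (69.3%), and gene names below are those descriptions, which can name a family rather than the exact gene.

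Library totals recovered from the RPKM steps were 17.0 and 18.8 M reads at 11 °C, against 16.0 and 18.4 M at 25 °C, so 1 read on a gene of 1 kb was worth 0.0533 to 0.0626 RPKM. The 51 tested loci described as proteins that plastid or mitochondrial DNA encodes took 4.31% and 2.66% of the reads at 11 °C, against 1.09% and 0.0686% at 25 °C, more in the first library than in the second at each of these temperatures. With 37 further loci, picked for summed levels in the first libraries at least 5 times those in the second (and at least 10 RPKM in a first library), the shares were 18.3% and 5.73% at 11 °C, against 7.22% and 0.421% at 25 °C, a gap between libraries that the choice of these loci partly sets. Of the 31 tested green shoot markers (Rubisco, light-harvesting and photosystem proteins), 24 were lower at 11 °C, 1 was higher and 6 were not called, and their summed level was 12702 and 11264 RPKM at 11 °C, against 54383 and 72972 RPKM at 25 °C. Rubisco activase (LOC_Os11g47970) alone had 1015 and 650.0 RPKM at 11 °C, against 27017 and 36629 at 25 °C, so the sums depend heavily on it. A Rubisco small chain (LOC_Os12g17600) was not called, with 4757 and 3490 RPKM at 11 °C, against 3223.5 and 5236 at 25 °C. The 6 root markers summed to 13.0 and 13.3 RPKM at 11 °C, against 111 and 136 RPKM at 25 °C, with 5 of them lower. All but the aquaporin NIP2-1 (LOC_Os02g51110) are loci described as nicotianamine aminotransferase, which can name a family, so this sum may not stand for root tissue. One such locus (LOC_Os11g42510) had 51.9 and 75.1 RPKM at 25 °C, and NIP2-1 had 18.1 and 12.9. Markers of dividing cells summed to 1823 and 2103 RPKM at 11 °C, against 1615 and 1611 RPKM at 25 °C (22 of 93 tested higher, 12 lower), and 78 of the 173 in the table stayed under 1 RPKM in all 4 libraries of 11 and 25 °C. These markers were picked by words that also take in inhibitors of cyclin-dependent kinases, so their sum does not measure cell division. Among them the inhibitor EL2 (LOC_Os03g01740) was higher and the cyclin-dependent kinase B1-1 (LOC_Os01g67160) lower. Among the 25 tested anther and panicle markers 3 were higher and 11 lower (178 and 177 RPKM summed at 11 °C, against 430 and 333 RPKM at 25 °C). The part of these markers in the results below was not tested, and in bulk shoots fewer cells of a type and less RNA per cell cannot be told apart.

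Rice is a plant of warm climates, and chilling above freezing slows its enzymes, stiffens its membranes and lets leaves take in more light energy than carbon fixation can use. Low temperature also stabilizes base pairing in RNA, so that ribosome assembly, splicing and translation depend more on helicases and RNA-binding chaperones. Plant cells sense cold through calcium entry, protein kinases and hormones, and they re-set the balance between growth, sugar storage and defence.

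Of the 19429 loci tested, 9726 (50.1%) passed a limma adjusted p of 0.05 between 11 and 25 °C, 5568 (28.7%) higher and 4158 (21.4%) lower at 11 °C. The median log2 difference over all tested loci was 0.13 on the log2(RPKM + 1) scale that is used for every log2 difference here, each given as 11 minus 25 °C with its standard error. Under another scaling that median was 0.01 (a TMM-type factor) or -0.03 (quantiles), so small shifts of a list are read against it. A log2 difference of at least 4 was reached by 165 loci among those higher and 74 among those lower. Loci at or over 1 RPKM in both libraries of 1 temperature and under 1 RPKM in both of the other numbered 1567 for 11 °C and 958 for 25 °C. Both 11 °C libraries lay above both 25 °C libraries in 8114 of the 19429 loci and below both in 6386. A lack of overlap, given below for many genes picked for large called differences, was therefore common and adds little to a call.

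The largest gains of transcript at 11 °C came from a short set of very abundant RNAs. Thiamine thiazole synthase 2 (LOC_Os07g34570), which makes the thiazole ring of vitamin B1, had 3680.0 and 3396 RPKM at 11 °C, against 1.71 and 2.20 at 25 °C. It was thus near the detection level in both warm libraries and among the most abundant RNAs in both chilled ones. Both chilled libraries exceeded both warm ones, a log2 difference of 10.23 ± 0.23 (limma adjusted p = 1.9e-06). CP12-1 (LOC_Os01g19740), a small redox protein that holds 2 Calvin cycle enzymes in an inactive complex, had 5107 and 5219.6 RPKM at 11 °C, against 112 and 195 at 25 °C. It rose by 5.12 ± 0.34 on the log2 scale (limma adjusted p = 3.2e-05), with no overlap between temperatures. A light-regulated protein (LOC_Os01g01340) had 4591 and 3680.2 RPKM at 11 °C, against 235 and 176 at 25 °C. MNB1B (LOC_Os06g51220), a high mobility group DNA-binding protein, had 3646 and 3628 RPKM at 11 °C, against 547 and 522 at 25 °C. In each of these genes both chilled libraries lay above both warm ones, with log2 differences of 4.33 ± 0.34 and 2.76 ± 0.27 for the last pair (limma adjusted p = 5.5e-05 and 1.4e-04). The other called and described genes with the largest gains were 2 glycine-rich RNA-binding proteins, a universal stress protein (LOC_Os12g36640), the 29 kDa ribonucleoprotein B, Lea5-D (LOC_Os01g21250), the nuclear GTPase Ran-2, arsenate reductase 2.1 (LOC_Os10g39860) and a GDSL esterase (LOC_Os06g06290). Of these Lea5-D had the weakest call (2309 and 2549.9 RPKM at 11 °C, against 1569 and 1166 at 25 °C, a log2 difference of 0.84 ± 0.29 (limma adjusted p = 0.042)), which was lost when any library other than the first 25 °C one was left out, with no filter on low values, with a replicate block and under either other scaling.

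Of the 12 largest losses, 9 were in genes of photosynthesis. Rubisco activase (LOC_Os11g47970), the chaperone that frees blocked Rubisco sites, had 1015 and 650.0 RPKM at 11 °C, against 27017 and 36629 at 25 °C. The chilled libraries thus held a small fraction of the warm level. Both chilled libraries fell short of both warm ones, a log2 difference of -5.27 ± 0.38 (limma adjusted p = 4.0e-05). A chloroplast aldolase (LOC_Os11g07020), 2 photosystem II 10 kDa polypeptides (LOC_Os08g10020 and LOC_Os07g05360), the photosystem I subunit psaK (LOC_Os07g05480), light-harvesting proteins P4, 1 and 8 (LOC_Os08g33820, LOC_Os09g17740 and LOC_Os02g10390) and ferredoxin-1 (LOC_Os08g01380) followed. The calls of the aldolase and of the first of the 10 kDa polypeptides were lost without the second 11 °C library and with no filter on low values. Outside photosynthesis the set held the clock repressor CCA1 (LOC_Os08g06110), with 113 and 115 RPKM at 11 °C, against 1654 and 2446 at 25 °C, the water channel PIP1-1 (LOC_Os02g44630), with 48.0 and 27.9 RPKM at 11 °C, against 1867 and 1438 at 25 °C, and oxalate-CoA ligase (LOC_Os04g58710), with 397 and 334 RPKM at 11 °C, against 2088 and 1509.9 at 25 °C. All 3 were lower in both chilled libraries, with log2 differences of -4.13 ± 0.30, -5.45 ± 0.31 and -2.28 ± 0.29 (limma adjusted p = 4.1e-05, 1.6e-05 and 4.7e-04).

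**Figure D1:**
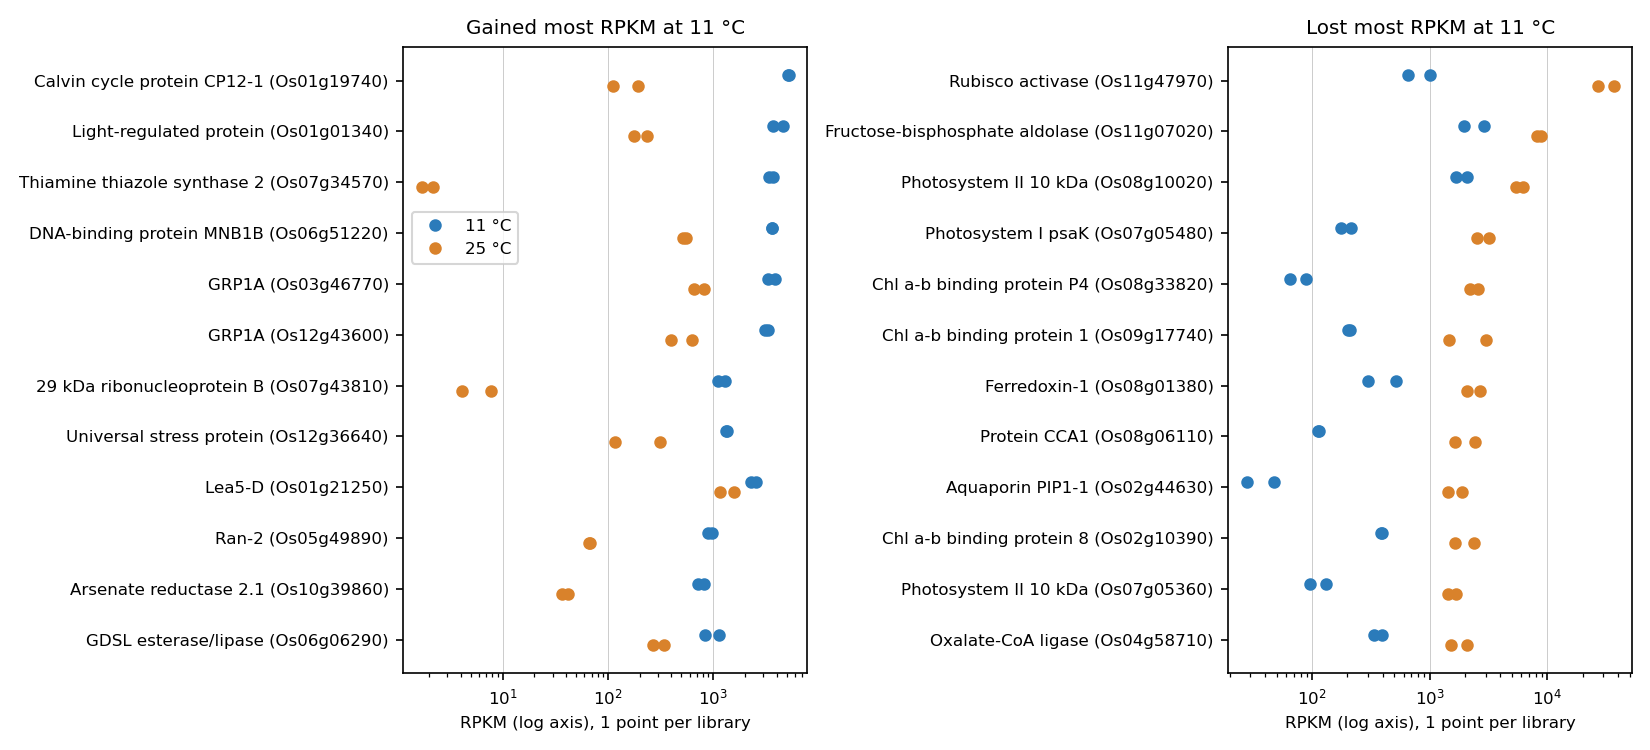
RPKM on a log axis in each of the 4 libraries (points) of the 12 called genes that gained and the 12 that lost the most mean RPKM at 11 °C, with 11 °C in blue and 25 °C in orange. Thiamine thiazole synthase 2 stands at 3680.0 and 3396 RPKM at 11 °C, against 1.71 and 2.20 at 25 °C, and Rubisco activase at 1015 and 650.0 RPKM at 11 °C, against 27017 and 36629 at 25 °C.

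Genes for making ribosomes were higher at 11 °C in most cases. Of 91 tested ribosome biogenesis and nucleolar proteins, 64 (70.3%) were higher at 11 °C, 4 were lower and 23 were not called, with a median log2 difference of 1.66 beside 0.13 over all loci (8 were lower under either other scaling). The largest call was a subunit of the H/ACA ribonucleoprotein (LOC_Os11g37080), which guides pseudouridine into ribosomal RNA, at 20.4 and 22.6 RPKM at 11 °C, against 0.839 and 0.506 at 25 °C. The 11 °C pair lay above the 25 °C pair, with a log2 difference of 3.76 ± 0.25 (limma adjusted p = 3.0e-05). Nucleolar protein 56 (LOC_Os03g22880), a core protein of the box C/D methylation particle, had 39.3 and 40.7 RPKM at 11 °C, against 2.67 and 2.05 at 25 °C. BRX1 (LOC_Os02g37870), which assembles the large subunit, had 31.5 and 38.7 RPKM at 11 °C, against 1.95 and 1.93 at 25 °C. Both genes were higher in both chilled libraries, with log2 differences of 3.62 ± 0.22 and 3.61 ± 0.22 (limma adjusted p = 2.2e-05 and 2.2e-05). Nucleolin 2 (LOC_Os08g33350) went the other way, at 2.06 and 2.80 RPKM at 11 °C, against 10.3 and 12.2 at 25 °C. It was lower in each chilled library, with a log2 difference of -1.84 ± 0.27 (limma adjusted p = 9.3e-04).

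The machinery that carries RNA and proteins through the nuclear pore and unwinds RNA was also higher in many of its genes. Among 49 nuclear transport proteins 29 (59.2%) were higher and 1 was lower, with a median of 1.05. Ran-2 (LOC_Os05g49890), the GTPase that sets the direction of import and export, had 884 and 980.1 RPKM at 11 °C, against 66.7 and 68.0 at 25 °C. It had a log2 difference of 3.77 ± 0.22 (limma adjusted p = 2.0e-05), the largest rise of the list, and the single fall was the pore protein NUP43 (LOC_Os08g16600), at 1.51 and 2.19 RPKM at 11 °C, against 12.8 and 11.4 at 25 °C. Importin alpha-1a (LOC_Os01g14950), which binds nuclear import signals, had 107 and 116 RPKM at 11 °C, against 137 and 84.0 at 25 °C, and its groups overlapped. Of 55 DEAD-box RNA helicases, which unwind structured RNA, 27 (49.1%) were higher and 4 lower (median 0.67; 1 or 2 lower without either 11 °C library or the second 25 °C library), led by helicase 9 (LOC_Os12g41715), a mitochondrial type, with 129 and 138 RPKM at 11 °C, against 1.65 and 0.926 at 25 °C. Chilled and warm libraries did not overlap, and the rise was 5.90 ± 0.23 log2 units (limma adjusted p = 6.9e-06). Glycine-rich RNA-binding and cold shock proteins, RNA chaperones known from cold in bacteria and plants, had 11 of 19 higher and 2 lower (median 0.79). The 2 GRP1A loci carried most of that RNA, LOC_Os03g46770 with 3298 and 3824 RPKM at 11 °C, against 813 and 664 at 25 °C and LOC_Os12g43600 with 3084 and 3305 RPKM at 11 °C, against 629 and 399 at 25 °C. The mitochondrial RNA-binding protein GRP4 (LOC_Os01g68790) changed most in the list, with 112 and 139 RPKM at 11 °C, against 0.811 and 0.538 at 25 °C. Transcript was higher in both chilled libraries, by 6.24 ± 0.25 log2 units (limma adjusted p = 7.6e-06). Without the second 11 °C library 19 nuclear transport proteins and 7 glycine-rich or cold shock proteins were higher, and 5 glycine-rich or cold shock proteins were lower under either other scaling. Both lower calls among these chaperones were lost without the first 11 °C library, and 1 of them without the first 25 °C library.

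Cytosolic ribosomal proteins were higher by smaller amounts in most of their genes: 123 of 204 (60.3%) were higher, 5 were lower and 76 were not called, with a median of 0.88 (3 were lower without the first 11 °C library, and 8 or 9 under the other scalings). Because these genes have near-identical copies, reads can be split between them and single values are uncertain. Translation factors had 29 of 85 higher and 4 lower (median 0.39), and aminoacyl-tRNA ligases, which load amino acids on tRNA, 19 of 55 higher and 1 lower (median 0.58). Both of these shares of increases lay near the 28.7% of all loci, and without the second 11 °C library they were 12 and 11 genes. Without the first, 19 translation factors were higher. Lower translation factors numbered 2 without the second 11 °C or the first 25 °C library and 8 under quantile scaling, where 5 ligases were lower, while the call of the 1 lower ligase was lost without any 1 of the 4 libraries. Splicing proteins went both ways, 28 higher and 18 lower of 105, with a median of 0.02, and 23 were higher and 29 lower under the TMM-type scaling (median -0.12). The serine/arginine-rich splicing factor RS41 (LOC_Os02g03040) had 257 and 307 RPKM at 11 °C, against 28.3 and 49.1 at 25 °C. In log2 units the rise was 2.88 ± 0.32 (limma adjusted p = 2.4e-04), with each chilled library above each warm one. The SC35-like factor SCL33 (LOC_Os07g43950) had 0.7 and 0.391 RPKM at 11 °C, against 18.7 and 21.8 at 25 °C. The 11 °C pair lay below the 25 °C pair, with a log2 difference of -3.79 ± 0.25 (limma adjusted p = 3.0e-05). Without the second 11 °C library 14 splicing proteins were higher, without the first 25 °C library 16, and without the first 11 °C library 9 were lower.

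**Figure D2:**
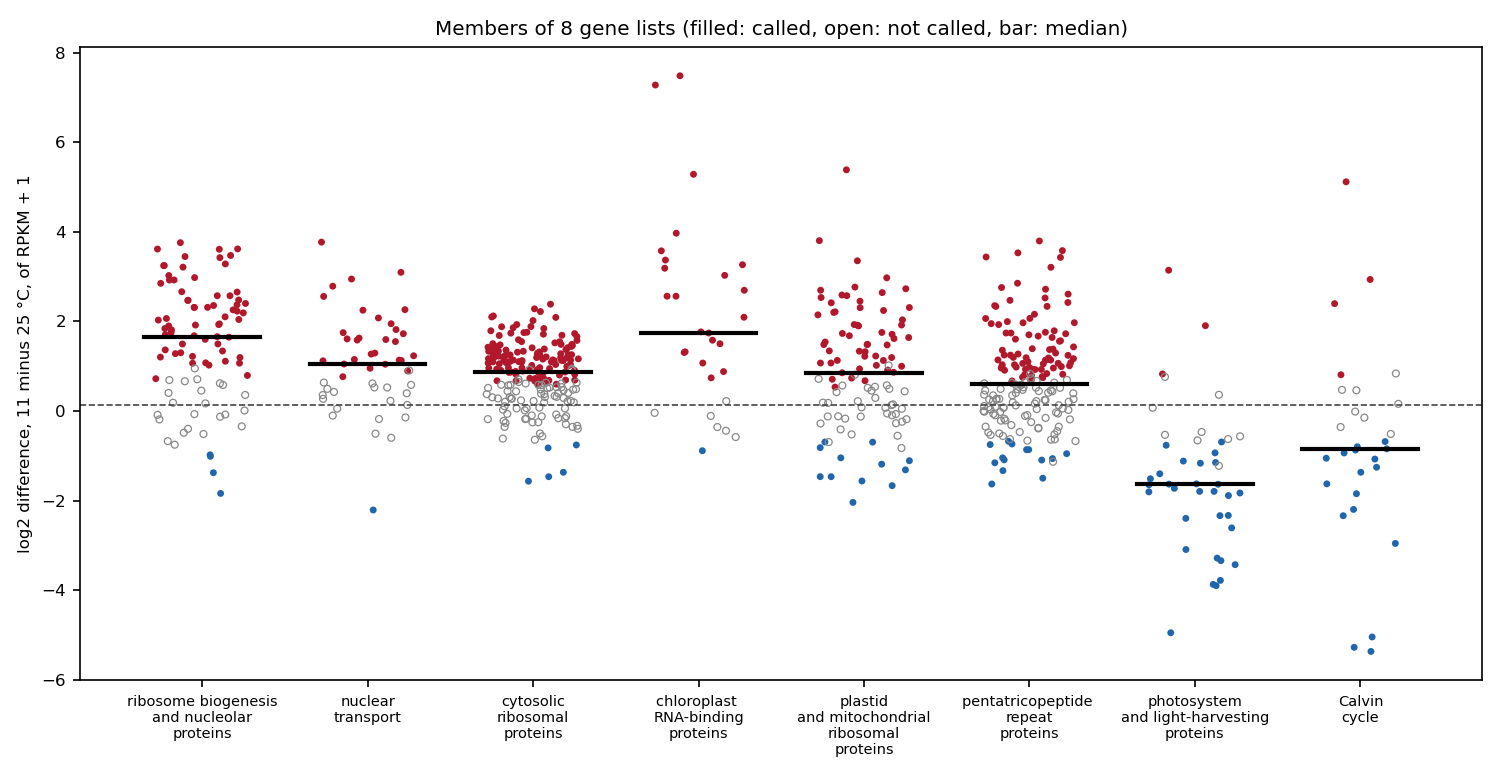
Log2 difference, 11 minus 25 °C, on the log2(RPKM + 1) scale, of each tested member (points) of 8 gene lists, with filled points for genes called by limma, open points for genes not called, a black bar at each list's median and a dashed line at the median of all loci (0.13). Ribosome biogenesis (median 1.66) and chloroplast RNA-binding proteins (1.74) lie mostly above the line, and photosystem (-1.63) and Calvin cycle proteins (-0.84) mostly below it.

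Inside the chloroplast, genes for handling plastid RNA and genes for photosynthesis moved in opposite directions. Chloroplast RNA-binding proteins, which edit, splice and protect plastid transcripts, had 22 of 29 (75.9%) higher, 1 lower (4 under quantile scaling, and that call was lost without the first 11 °C or the second 25 °C library) and a median of 1.74. The 29 kDa ribonucleoprotein B (LOC_Os07g43810) had 1104 and 1295 RPKM at 11 °C, against 4.15 and 7.70 at 25 °C. Each chilled library was higher than each warm one, a log2 difference of 7.48 ± 0.29 (limma adjusted p = 6.9e-06). The 31 kDa ribonucleoprotein (LOC_Os09g39180) had 189 and 220.5 RPKM at 11 °C, against 57.5 and 61.0 at 25 °C. That was a rise of 1.77 ± 0.21 log2 units (limma adjusted p = 3.2e-04), present in both chilled libraries. Pentatricopeptide repeat proteins, which each bind 1 or a few organelle RNAs, had 81 of 178 (45.5%) higher and 14 lower (median 0.60), with falls in 7 without the first 11 °C library, 9 without the second 25 °C library, 27 under the TMM-type and 31 under quantile scaling. Ribosomal proteins of plastids and mitochondria had 55 of 103 (53.4%) higher and 12 lower (median 0.85). The 2 S1 proteins named 30S ribosomal protein S1 of the small subunit stood at opposite ends, since LOC_Os05g45920 had 38.5 and 56.9 RPKM at 11 °C, against 0.156 and 0.136 at 25 °C and LOC_Os03g62780 had 21.2 and 24.0 RPKM at 11 °C, against 86.6 and 106 at 25 °C. Their log2 differences were 5.38 ± 0.29 and -2.04 ± 0.21 (limma adjusted p = 1.4e-05 and 1.8e-04).

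Of 42 tested photosystem and light-harvesting proteins 30 (71.4%) were lower and 3 higher, with a median of -1.63. Light-harvesting protein 7 (LOC_Os09g26810) was the largest of the exceptions, at 19.1 and 18.6 RPKM at 11 °C, against 1.68 and 0.887 at 25 °C. Warm levels were lower in both libraries, and the log2 difference was 3.14 ± 0.27 (limma adjusted p = 7.4e-05). Elongation factors of plastid translation were lower too. EF-G-2 (LOC_Os04g45490) had 45.4 and 52.9 RPKM at 11 °C, against 202 and 205 at 25 °C, and EF-Tu (LOC_Os02g38210) had 143 and 112 RPKM at 11 °C, against 485 and 366 at 25 °C. Both were lower in both chilled libraries, with log2 differences of -2.03 ± 0.24 and -1.72 ± 0.24 (limma adjusted p = 3.3e-04 and 7.7e-04), while mitochondrial EF-Tu (LOC_Os03g63410) was higher, at 22.1 and 29.7 RPKM at 11 °C, against 1.57 and 1.74 at 25 °C.

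In the Calvin cycle 17 of 29 tested genes (58.6%) were lower, 4 were higher and 8 were not called, with a median of -0.84. The count of falls was 10 without the first 11 °C library and 8 without the second. Phosphoribulokinase (LOC_Os02g47020), which remakes the CO2 acceptor, had 219 and 189 RPKM at 11 °C, against 1374 and 1827 at 25 °C. Glyceraldehyde-3-phosphate dehydrogenase A (LOC_Os04g38600), the reducing step, had 258 and 207 RPKM at 11 °C, against 1017 and 1348 at 25 °C. Both lay lower in both chilled libraries, with log2 differences of -2.95 ± 0.26 and -2.34 ± 0.28 (limma adjusted p = 9.1e-05 and 3.2e-04). Those are the enzymes that CP12, described above as higher, binds. Photorespiration, which salvages the product of Rubisco's reaction with oxygen, had 14 of 34 lower and 5 higher (median -0.42), with 9 and 8 lower when the first or the second 11 °C library was left out. Its glycolate oxidase isoform GLO4 (LOC_Os07g42440) was higher, at 18.2 and 19.5 RPKM at 11 °C, against 1.34 and 1.44 at 25 °C. Both chilled libraries exceeded both warm ones, a log2 difference of 3.05 ± 0.23 (limma adjusted p = 4.9e-05). Catalase-1 (LOC_Os03g03910), which removes the peroxide made by that step, had 643 and 764 RPKM at 11 °C, against 1624 and 1677 at 25 °C, a log2 difference of -1.23 ± 0.26 (limma adjusted p = 0.0055), a call that was lost without the first 11 °C library and under quantile scaling. In carotenoid synthesis 8 of 23 genes were lower and 3 higher (median -0.33), with 5 lower without the first 11 °C library and 1 higher without the second. Phytoene dehydrogenase (LOC_Os03g08570), an early desaturase, had 63.1 and 98.6 RPKM at 11 °C, against 19.1 and 26.6 at 25 °C. It rose by 1.76 ± 0.31 on the log2 scale (limma adjusted p = 0.0024), with no overlap between temperatures. Zeaxanthin epoxidase (LOC_Os11g03390), which removes the photoprotective pigment zeaxanthin, had 12.1 and 8.23 RPKM at 11 °C, against 186 and 189 at 25 °C. The temperatures did not overlap, and chilled minus warm was -4.10 ± 0.24 log2 units (limma adjusted p = 2.1e-05).

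**Figure D3:**
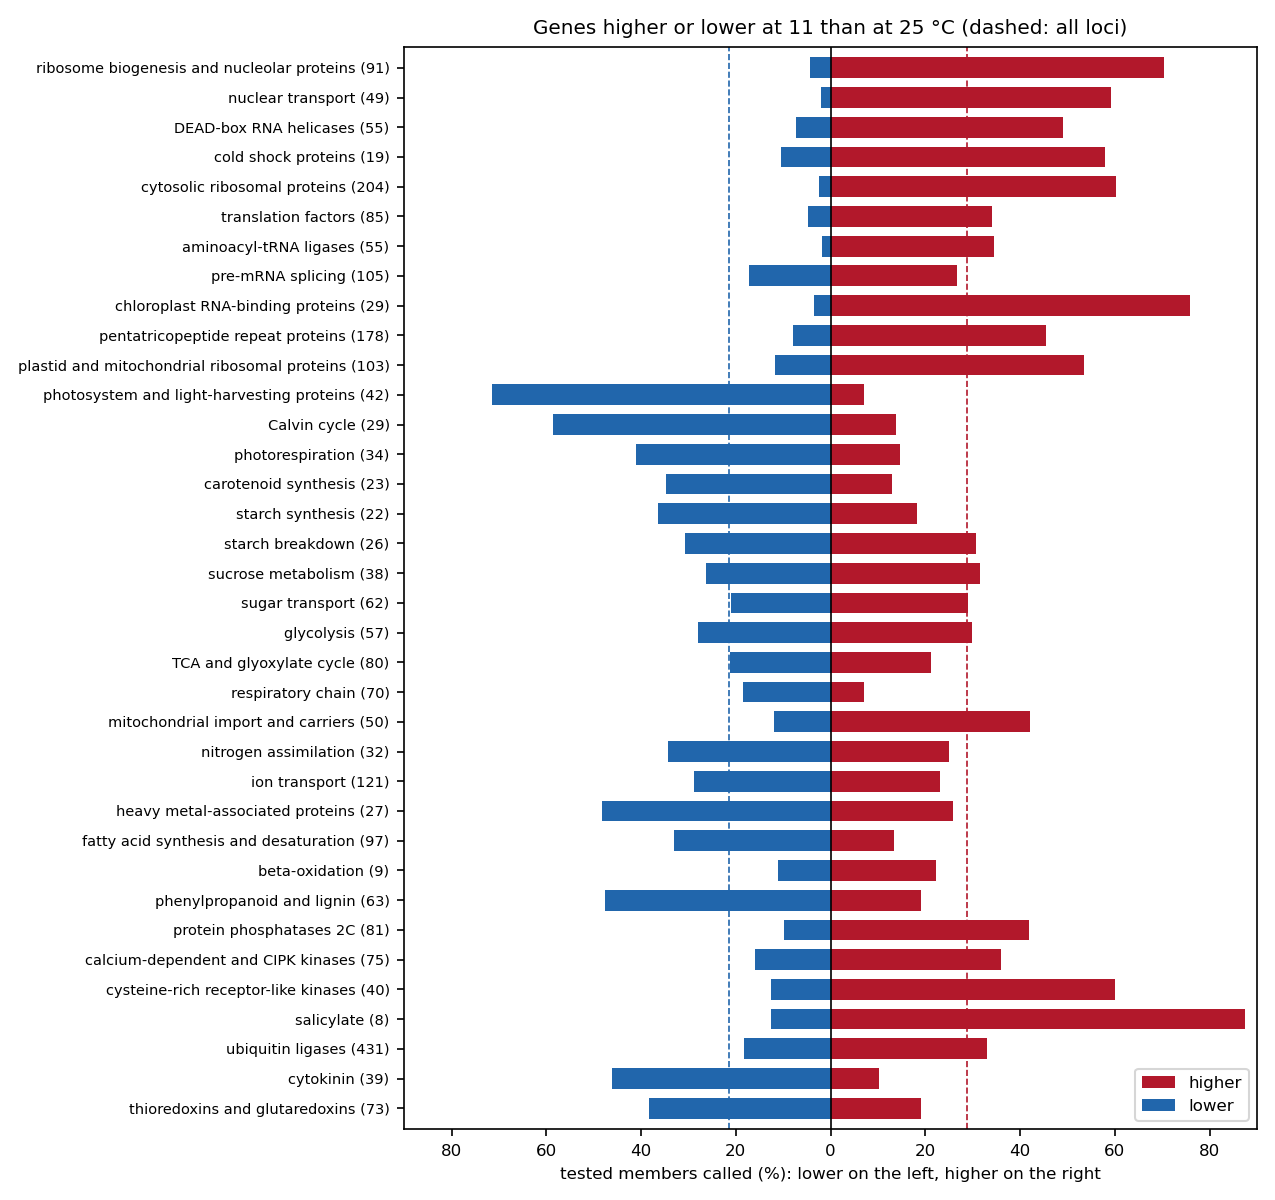
Share (%) of tested members higher (right, red) and lower (left, blue) at 11 than at 25 °C in 36 gene lists, with the number tested beside each name and dashed lines at the shares over all loci (28.7% higher and 21.4% lower). Salicylate (87.5% higher of 8) and chloroplast RNA-binding proteins (75.9% of 29) reach furthest right, and photosystem proteins (71.4% of 42) furthest left.

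In carbon storage and use, the lists held genes that changed in opposite directions. The genes named were mostly picked as the largest rise or fall of a list, so opposed pairs follow in part from that choice. Starch synthesis had 4 higher and 8 lower of 22 (median -0.14), and starch breakdown 8 higher and 8 lower of 26, where 5 were higher without the second 11 °C or without the first 25 °C library and 13 were lower under quantile scaling. Isoamylase 1 (LOC_Os08g40930), which trims branches of growing starch, had 56.0 and 75.9 RPKM at 11 °C, against 2.21 and 2.60 at 25 °C. The 11 °C pair lay above the 25 °C pair, with a log2 difference of 4.28 ± 0.28 (limma adjusted p = 3.0e-05). Granule-bound starch synthase 1b (LOC_Os07g22930), which makes amylose in leaves, had 53.0 and 52.7 RPKM at 11 °C, against 171 and 254 at 25 °C. Transcript was lower in both chilled libraries, a log2 difference of -1.96 ± 0.29 (limma adjusted p = 9.8e-04). Beta-amylases, which release maltose, split in the same manner: LOC_Os01g70700 had 8.07 and 11.7 RPKM at 11 °C, against 0.366 and 0.398 at 25 °C, and the chloroplast beta-amylase 1 (LOC_Os03g04770) had 14.7 and 16.1 RPKM at 11 °C, against 139 and 98.7 at 25 °C. Their log2 differences were 2.96 ± 0.24 and -2.85 ± 0.23 (limma adjusted p = 6.1e-05 and 6.0e-05).

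Sucrose metabolism had 12 higher and 10 lower of 38, with 5 or 6 lower when the first 11 °C, the second 11 °C or the first 25 °C library was left out and 11 higher and 15 lower under the TMM-type scaling. Sucrose synthase 4 (LOC_Os03g22120), which splits sucrose without spending ATP, had 78.1 and 124 RPKM at 11 °C, against 8.25 and 11.5 at 25 °C. Chilled and warm libraries did not overlap, and the rise was 3.21 ± 0.32 log2 units (limma adjusted p = 1.4e-04). The neutral invertase CINV2 (LOC_Os01g22900), which splits sucrose with water, had 52.6 and 67.2 RPKM at 11 °C, against 286 and 380.0 at 25 °C. In log2 units the difference was -2.45 ± 0.27 (limma adjusted p = 2.3e-04), with each chilled library below each warm one. Sugar transporters were also divided, 18 higher and 13 lower of 62, with 18 and 25 under the TMM-type scaling. SWEET7d (LOC_Os09g08490), of the family of sugar exporters, had 29.5 and 41.1 RPKM at 11 °C, against 1.33 and 0.696 at 25 °C. Transcript was higher in both chilled libraries, by 4.17 ± 0.28 log2 units (limma adjusted p = 3.2e-05). Polyol transporter 5 (LOC_Os12g32760) had 6.45 and 2.74 RPKM at 11 °C, against 206 and 115 at 25 °C. Each chilled library was lower than each warm one, a log2 difference of -4.87 ± 0.38 (limma adjusted p = 5.4e-05).

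Glycolysis had 17 higher and 16 lower of 57, with a median of 0.16 beside 0.13 over all loci (-0.01 under quantile scaling), and 8 or 9 lower when either 11 °C library or the second 25 °C library was left out. Enolase 1 (LOC_Os06g04510) had 269 and 306 RPKM at 11 °C, against 3.02 and 3.71 at 25 °C. In log2 units the rise was 6.05 ± 0.21 (limma adjusted p = 4.9e-06), with each chilled library above each warm one. The cytosolic aldolase (LOC_Os06g40640) had 104 and 94.2 RPKM at 11 °C, against 464 and 485 at 25 °C. Warm levels were higher in both libraries, and the log2 difference was -2.25 ± 0.22 (limma adjusted p = 1.3e-04). An alpha subunit of the pyrophosphate-dependent phosphofructokinase (LOC_Os06g22060) had 3.004 and 4.52 RPKM at 11 °C, against 34.7 and 49.7 at 25 °C. Both chilled libraries fell short of both warm ones, a log2 difference of -3.18 ± 0.29 (limma adjusted p = 9.8e-05). Phosphoenolpyruvate carboxylase kinase 1 (LOC_Os02g41580), which activates the enzyme that refills organic acids, had 71.8 and 82.0 RPKM at 11 °C, against 2.12 and 2.69 at 25 °C. Each chilled library was higher than each warm one, a log2 difference of 4.52 ± 0.23 (limma adjusted p = 1.2e-05). In the tricarboxylic acid and glyoxylate cycles 17 of 80 (21.25%) were higher and 17 lower. That was below the 28.7% of all loci for increases and near the 21.4% for decreases. The median of 0.10 was -0.05 under either other scaling. Chloroplast malate dehydrogenase (LOC_Os07g43700), which exports reducing power as malate, had 1.62 and 2.52 RPKM at 11 °C, against 51.9 and 90.7 at 25 °C. It was lower in each chilled library, with a log2 difference of -4.52 ± 0.33 (limma adjusted p = 4.0e-05). The glyoxysomal form (LOC_Os03g56280) had 347 and 325 RPKM at 11 °C, against 1145 and 1199 at 25 °C. The 11 °C pair lay below the 25 °C pair, with a log2 difference of -1.80 ± 0.25 (limma adjusted p = 6.6e-04).

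Mitochondrial genes showed few calls in the standard respiratory chain. The single genes named around it were mostly picked as the largest rise or fall of a list, so their large differences follow from that choice. Of 70 respiratory chain genes 52 were not called, 5 were higher and 13 lower (median -0.14), with 8 lower, and 3 or 2 higher, when the first or the second 11 °C library was left out, and 4 higher and 19 lower under quantile scaling. Alternative oxidases pass electrons from ubiquinone straight to oxygen, without pumping protons. Of 17 alternative oxidase and uncoupling genes 5 (29.4%) were higher, 4 (23.5%) lower and 8 not called, near the shares of all loci. Ubiquinol oxidase 1a (LOC_Os04g51150) had 69.1 and 103 RPKM at 11 °C, against 1.94 and 2.296 at 25 °C. That was a rise of 4.78 ± 0.26 log2 units (limma adjusted p = 1.5e-05), present in both chilled libraries. A second locus described as ubiquinol oxidase 1a (LOC_Os02g47200) had 10.2 and 12.9 RPKM at 11 °C, against 54.4 and 71.7 at 25 °C. The temperatures did not overlap, and chilled minus warm was -2.35 ± 0.23 log2 units (limma adjusted p = 1.4e-04). The external NAD(P)H dehydrogenase (LOC_Os06g47000), which also bypasses proton pumping, had 2.55 and 2.71 RPKM at 11 °C, against 14.8 and 21.8 at 25 °C. Transcript was lower in both chilled libraries, a log2 difference of -2.39 ± 0.31 (limma adjusted p = 5.2e-04). Protein import into mitochondria and inner membrane carriers had 21 of 50 (42.0%) higher and 6 lower (median 0.55). The import pore TOM40-1 (LOC_Os01g16910) had 14.1 and 18.5 RPKM at 11 °C, against 0.358 and 0.195 at 25 °C. Warm levels were lower in both libraries, and the log2 difference was 3.75 ± 0.26 (limma adjusted p = 3.5e-05). Mitochondrial HSP70 (LOC_Os09g31486), the motor and folding chaperone of the matrix, had 56.2 and 74.0 RPKM at 11 °C, against 1.79 and 1.98 at 25 °C. Both chilled libraries exceeded both warm ones, a log2 difference of 4.51 ± 0.24 (limma adjusted p = 1.3e-05). The cytosolic cognate HSC70-2 (LOC_Os11g47760) had 464 and 367 RPKM at 11 °C, against 1520.3 and 1387 at 25 °C, a log2 difference of -1.81 ± 0.24 (limma adjusted p = 5.8e-04), and heat shock proteins and chaperonins as a list were split, 20 higher and 23 lower of 64.

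Nitrogen assimilation also held isoforms that changed in opposite directions. Of 32 genes 8 were higher and 11 lower, with a median of 0.04 that was -0.11 under the TMM-type scaling, and 7 were lower when either 11 °C library was left out. Nitrate reductase 1 (LOC_Os08g36480), the entry step, had 1.49 and 1.66 RPKM at 11 °C, against 24.0 and 18.7 at 25 °C. In log2 units the difference was -3.11 ± 0.25 (limma adjusted p = 5.5e-05), with each chilled library below each warm one. Chloroplast glutamine synthetase (LOC_Os04g56400), which traps ammonium from nitrite and photorespiration, had 175 and 172 RPKM at 11 °C, against 496 and 586 at 25 °C. Each chilled library was lower than each warm one, a log2 difference of -1.63 ± 0.22 (limma adjusted p = 6.6e-04). Ferredoxin-dependent glutamate synthase (LOC_Os07g46460), its partner in green leaves, had 184 and 223 RPKM at 11 °C, against 383 and 578 at 25 °C, a log2 difference of -1.21 ± 0.30 (limma adjusted p = 0.011), and this call was lost without the first 11 °C library. The NADH-dependent isoform, glutamate synthase 2 (LOC_Os05g48200), had 249 and 362 RPKM at 11 °C, against 3.50 and 4.01 at 25 °C, a log2 difference of 5.99 ± 0.25 (limma adjusted p = 8.0e-06), with both chilled libraries far above both warm ones. Ammonium transporters were divided too: transporter 2 member 1 (LOC_Os05g39240) had 51.8 and 60.9 RPKM at 11 °C, against 5.64 and 6.17 at 25 °C, and transporter 1 member 1 (LOC_Os04g43070) had 96.3 and 114 RPKM at 11 °C, against 300.2 and 253 at 25 °C. Their log2 differences were 3.05 ± 0.22 and -1.39 ± 0.22 (limma adjusted p = 3.7e-05 and 0.0013).

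Sulfur assimilation had 6 higher and 8 lower of 25. Serine acetyltransferase 2 (LOC_Os03g04140), which supplies the carbon skeleton of cysteine, had 6.06 and 6.80 RPKM at 11 °C, against 86.4 and 81.4 at 25 °C. Warm levels were higher in both libraries, and the log2 difference was -3.52 ± 0.22 (limma adjusted p = 2.4e-05). A probable S-sulfocysteine synthase (LOC_Os01g59920) of the chloroplast had 9.04 and 14.2 RPKM at 11 °C, against 0 and 0.122 at 25 °C. It rose by 3.54 ± 0.27 on the log2 scale (limma adjusted p = 4.6e-05), with no overlap between temperatures. Ion transporters were 28 higher and 35 lower of 121. Potassium transporter 1 (LOC_Os04g32920) had 371 and 542 RPKM at 11 °C, against 9.60 and 8.48 at 25 °C. The 11 °C pair lay above the 25 °C pair, with a log2 difference of 5.49 ± 0.26 (limma adjusted p = 8.6e-06). Boron transporter 4 (LOC_Os01g08020) had 1.69 and 1.56 RPKM at 11 °C, against 73.1 and 87.6 at 25 °C. Both chilled libraries fell short of both warm ones, a log2 difference of -4.95 ± 0.22 (limma adjusted p = 8.6e-06). Heavy metal-associated proteins and metallothioneins had 13 of 27 lower and 7 higher (median -0.72). Without the second 11 °C library these counts were 6 and 4, and without the first 25 °C library 4 were higher. Metallothionein 3B (LOC_Os05g11320) had 1.45 and 0.751 RPKM at 11 °C, against 58.4 and 99.7 at 25 °C, a log2 difference of -5.22 ± 0.39 (limma adjusted p = 4.5e-05), whereas the abundant metallothionein 3A (LOC_Os01g10400) had 7088 and 5189.8 RPKM at 11 °C, against 2932 and 6645 at 25 °C, and its groups overlapped.

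**Figure D4:**
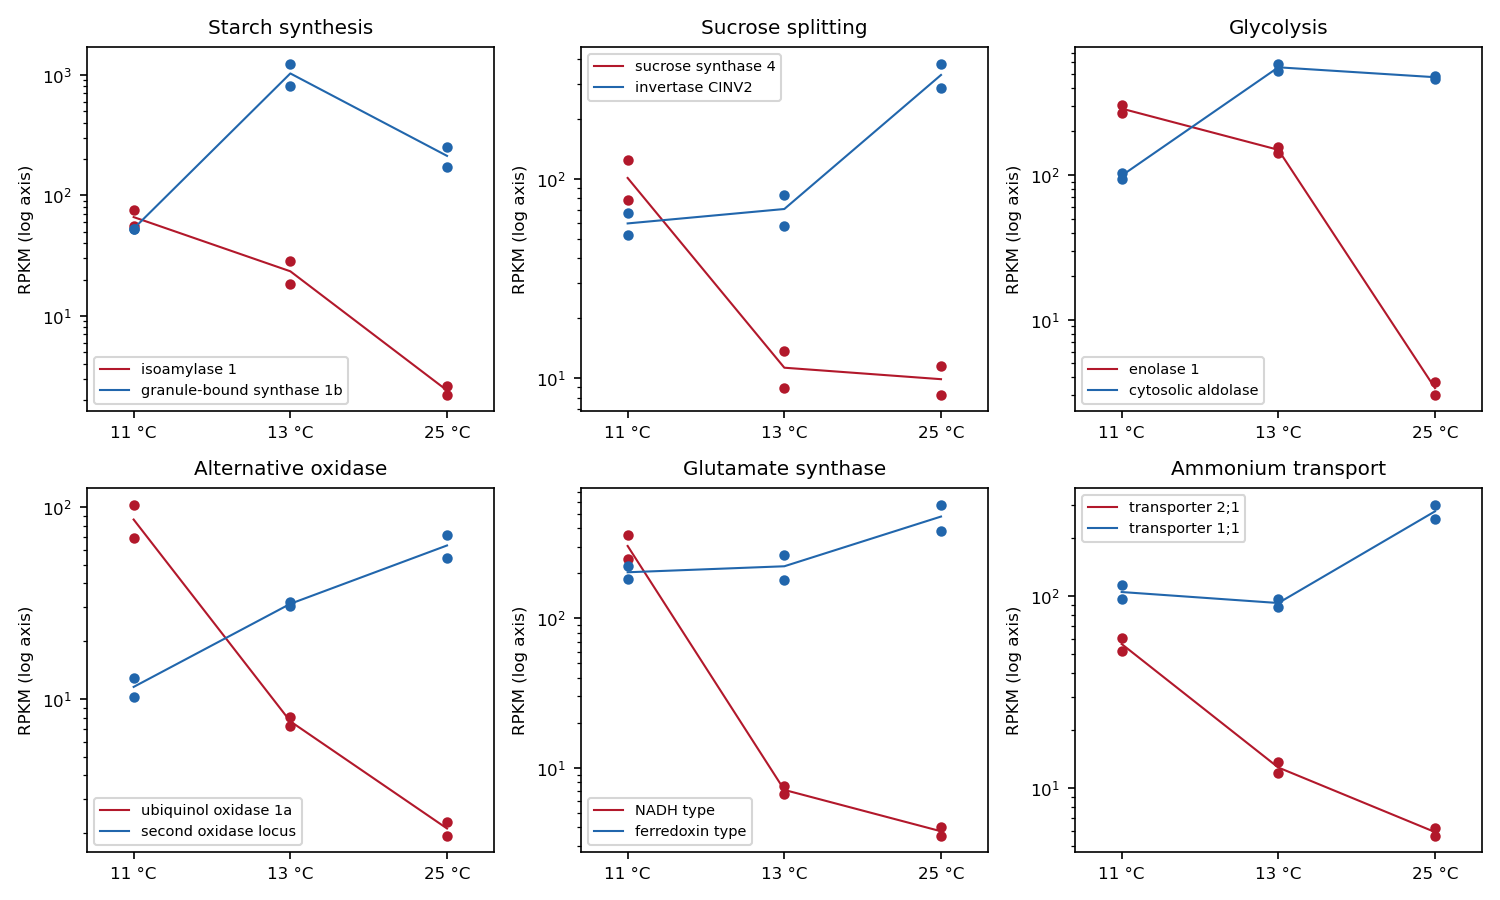
RPKM on a log axis in each library at 11, 13 and 25 °C (points, 2 per temperature, joined through their means) of 12 genes in 6 pairs from carbon, nitrogen and respiratory metabolism. Each pair was picked to hold 1 gene higher at 11 than at 25 °C (red) and 1 lower (blue). Ubiquinol oxidase 1a stands at 69.1 and 103 RPKM at 11 °C, against 1.94 and 2.296 at 25 °C, and the second oxidase locus at 10.2 and 12.9 RPKM at 11 °C, against 54.4 and 71.7 at 25 °C.

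In the lists of fatty acid, phenylpropanoid and terpene synthesis more genes were lower than higher at 11 °C. Phospholipid signalling did not share this, with 22 higher and 18 lower of 85. Of 97 genes of fatty acid synthesis and desaturation 32 (33.0%) were lower and 13 higher (median -0.32). The omega-6 desaturase of the endoplasmic reticulum (LOC_Os02g48560), which puts the second double bond into membrane fatty acids, had 44.9 and 43.8 RPKM at 11 °C, against 553 and 411 at 25 °C. It was lower in each chilled library, with a log2 difference of -3.40 ± 0.24 (limma adjusted p = 3.5e-05). Among 63 phenylpropanoid and lignin genes 30 (47.6%) were lower and 12 higher (median -0.43). Phenylalanine ammonia-lyase (LOC_Os02g41630), the first step, had 9.82 and 4.997 RPKM at 11 °C, against 51.7 and 66.6 at 25 °C. The 11 °C pair lay below the 25 °C pair, with a log2 difference of -2.89 ± 0.31 (limma adjusted p = 1.9e-04). The next enzyme, cinnamate 4-hydroxylase (LOC_Os05g25640), had 13.5 and 16.0 RPKM at 11 °C, against 95.03 and 64.4 at 25 °C. The temperatures did not overlap, and chilled minus warm was -2.33 ± 0.25 log2 units (limma adjusted p = 1.8e-04). After it 4-coumarate-CoA ligase 3 (LOC_Os02g08100) had 2.58 and 1.95 RPKM at 11 °C, against 64.9 and 56.5 at 25 °C. Transcript was lower in both chilled libraries, a log2 difference of -4.24 ± 0.25 (limma adjusted p = 2.1e-05). Terpene synthesis had 10 of 26 lower and 6 higher (median -0.64). Farnesyl pyrophosphate synthase (LOC_Os01g50760), which makes the precursor of sterols and sesquiterpenes, had 41.3 and 34.97 RPKM at 11 °C, against 241 and 277 at 25 °C. In log2 units the difference was -2.73 ± 0.24 (limma adjusted p = 8.3e-05), with each chilled library below each warm one. Squalene monooxygenase (LOC_Os03g12900), a sterol enzyme, went up, at 8.44 and 12.9 RPKM at 11 °C, against 0.954 and 1.61 at 25 °C. Chilled and warm libraries did not overlap, and the rise was 2.34 ± 0.32 log2 units (limma adjusted p = 6.5e-04).

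Among signalling genes, set against the 28.7% higher and 21.4% lower of all loci, several lists lay above that share of increases. Protein phosphatases 2C (42.0%) and cysteine-rich receptor-like kinases (60%) were among them. So were leucine-rich repeat receptor kinases (56 of 150 higher), wall-associated and lectin receptor kinases (41 of 119) and calcium-dependent and related kinases (27 of 75). Jasmonate (13 of 32) and salicylate genes (7 of 8) lay above it too. Gibberellin (4 of 19) and cytokinin genes (4 of 39) were among the lists below it. Protein phosphatases 2C, among them the negative regulators of abscisic acid signalling, had 34 of 81 (42.0%) higher and 8 lower (median 0.46), with 5 lower without the first 11 °C library and 16 lower under either other scaling. Phosphatase 11 (LOC_Os02g08364) had 44.5 and 59.8 RPKM at 11 °C, against 3.29 and 2.42 at 25 °C. Transcript was higher in both chilled libraries, by 3.78 ± 0.28 log2 units (limma adjusted p = 4.2e-05). Phosphatase 39 (LOC_Os04g33080) had 25.0 and 33.0 RPKM at 11 °C, against 114 and 151 at 25 °C. Each chilled library was lower than each warm one, a log2 difference of -2.15 ± 0.28 (limma adjusted p = 5.0e-04). Calcium-dependent, CBL-interacting and stress-activated kinases had 27 of 75 higher and 12 lower (median 0.38). SAPK9 (LOC_Os12g39630), a kinase of the SnRK2 family that abscisic acid activates, had 57.9 and 41.0 RPKM at 11 °C, against 1.47 and 0.345 at 25 °C. In log2 units the rise was 4.77 ± 0.38 (limma adjusted p = 5.7e-05), with each chilled library above each warm one. CIPK5 (LOC_Os01g10890) had 1.88 and 1.71 RPKM at 11 °C, against 50.1 and 43.8 at 25 °C. Warm levels were higher in both libraries, and the log2 difference was -4.10 ± 0.21 (limma adjusted p = 1.3e-05). Calmodulin-like and other calcium-binding proteins had 26 of 76 (34.2%) higher and 13 lower, near the share of all loci, with CML31 (LOC_Os01g72530) at 16.1 and 23.3 RPKM at 11 °C, against 0.376 and 0.655 at 25 °C. Each chilled library was higher than each warm one, a log2 difference of 3.76 ± 0.31 (limma adjusted p = 6.6e-05). Without the second 11 °C library 14 of these kinases and 16 of these calcium-binding proteins were higher, and under quantile scaling 20 of the kinases and 24 of the calcium-binding proteins were lower.

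Of 40 mitogen-activated kinases and their activators 13 (32.5%) were higher and 7 lower, near the 28.7% higher over all loci. MAPK5 (LOC_Os03g17700), a rice kinase of stress and defence signalling, had 43.4 and 65.4 RPKM at 11 °C, against 3.52 and 5.51 at 25 °C. That was a rise of 3.32 ± 0.29 log2 units (limma adjusted p = 8.3e-05), present in both chilled libraries. MAPK9 (LOC_Os05g50560) had 4.74 and 7.22 RPKM at 11 °C, against 52.1 and 74.8 at 25 °C. Both chilled libraries fell short of both warm ones, a log2 difference of -3.21 ± 0.32 (limma adjusted p = 1.4e-04). Cysteine-rich receptor-like kinases, a family tied to oxidative stress and immunity, had 24 of 40 (60%) higher and 5 lower (median 0.88), with 3 lower without the first 11 °C library and 8 under quantile scaling. The largest rise was LOC_Os07g43570, at 135 and 199.5 RPKM at 11 °C, against 0.33 and 0.553 at 25 °C. Warm levels were lower in both libraries, and the log2 difference was 6.84 ± 0.29 (limma adjusted p = 8.1e-06). Of 8 genes of salicylate, the immune hormone, 7 were higher and 1 was lower (median 1.87), a call lost without the second 11 °C library. NPR4 (LOC_Os01g56200), a salicylate receptor that holds defence genes off in Arabidopsis, had 139 and 122 RPKM at 11 °C, against 47.0 and 36.6 at 25 °C. Both chilled libraries exceeded both warm ones, a log2 difference of 1.62 ± 0.22 (limma adjusted p = 5.6e-04). Salicylate carboxymethyltransferase (LOC_Os01g50610), which turns the hormone into its volatile methyl ester, had 36.1 and 45.6 RPKM at 11 °C, against 0.986 and 1.18 at 25 °C. It rose by 4.32 ± 0.26 on the log2 scale (limma adjusted p = 2.1e-05), with no overlap between temperatures. Ubiquitin ligases, the largest list, had 142 of 431 (32.9%) higher and 79 lower, also near that share, led by RING finger protein 141 (LOC_Os10g30850), with 70.5 and 80.96 RPKM at 11 °C, against 0.462 and 0.76 at 25 °C. The 11 °C pair lay above the 25 °C pair, with a log2 difference of 5.58 ± 0.25 (limma adjusted p = 8.1e-06). Without the second 11 °C library 88 ubiquitin ligases were higher, and without the first 47 were lower. Quantile scaling gave 137 higher and 118 lower (median -0.01).

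Among hormones, cytokinin, which promotes shoot growth and keeps leaves green, had more genes lower than higher. Of 39 genes 18 (46.2%) were lower and 4 higher (median -0.66), or 2 higher without either 11 °C library or the first 25 °C library. The response regulator ARR3 (LOC_Os02g35180), of the type that cytokinin induces, had 34.8 and 33.8 RPKM at 11 °C, against 323 and 232 at 25 °C. It was lower in each chilled library, with a log2 difference of -2.96 ± 0.23 (limma adjusted p = 5.0e-05). Cytokinin dehydrogenase 11 (LOC_Os08g35860), which destroys the hormone, had 10.2 and 11.4 RPKM at 11 °C, against 141 and 93.5 at 25 °C. The 11 °C pair lay below the 25 °C pair, with a log2 difference of -3.30 ± 0.26 (limma adjusted p = 5.1e-05). ARR1 (LOC_Os03g12350), named for the activators of cytokinin-responsive genes, was among the few higher, at 50.5 and 56.7 RPKM at 11 °C, against 23.5 and 23.2 at 25 °C. Chilled and warm libraries did not overlap, and the rise was 1.16 ± 0.21 log2 units (limma adjusted p = 0.0028). Brassinosteroid genes were fewer and went up, 5 of 7 higher and 2 not called (median 1.02), and included the BZR1 homologs LOC_Os06g35900, with 13.4 and 19.7 RPKM at 11 °C, against 2.04 and 2.25 at 25 °C, and LOC_Os01g10610, with 42.4 and 49.3 RPKM at 11 °C, against 21.0 and 22.8 at 25 °C. In gibberellin 4 of 19 were higher and 6 lower, with 3 lower without the first 11 °C library, 2 higher without either 11 °C or the second 25 °C library, and 2 higher and 8 lower under the TMM-type scaling. A gibberellin 2-beta-dioxygenase (LOC_Os05g48700) had 18 and 27 recovered reads at 11 °C, against 250 and 187 at 25 °C. The gibberellin receptor GID1 (LOC_Os05g33730) had 62.8 and 77.0 RPKM at 11 °C, against 17.0 and 18.2 at 25 °C. Transcript was higher in both chilled libraries, by 1.92 ± 0.21 log2 units (limma adjusted p = 2.3e-04). Ethylene synthesis and signalling had 8 higher and 7 lower of 24, with 4 or 5 higher when the second 11 °C library or either 25 °C library was left out. An ethylene receptor (LOC_Os05g06320) had 458 and 551 recovered reads at 11 °C, against 30 and 61 at 25 °C. The ACC oxidase (LOC_Os05g05680), the last step of ethylene synthesis, had 6.23 and 8.75 RPKM at 11 °C, against 47.9 and 58.4 at 25 °C. The temperatures did not overlap, and chilled minus warm was -2.68 ± 0.25 log2 units (limma adjusted p = 1.0e-04).

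Among redox carriers 28 of 73 thioredoxins and glutaredoxins (38.4%) were lower and 14 higher (median -0.48), with 18 lower without the first 11 °C library. Glutaredoxin-C1 (LOC_Os01g27140) had 0.306 and 0.764 RPKM at 11 °C, against 85.5 and 75.5 at 25 °C. Transcript was lower in both chilled libraries, a log2 difference of -5.74 ± 0.26 (limma adjusted p = 8.6e-06). The chloroplast thioredoxin-like 3-1 (LOC_Os02g53400) had 94.2 and 93.1 RPKM at 11 °C, against 0.369 and 0.578 at 25 °C, a log2 difference of 6.01 ± 0.21 (limma adjusted p = 4.9e-06), and its chilled and warm values lay far apart. Genes that loosen the cell wall were called in both directions, 30 higher and 31 lower of 105. Xyloglucan endotransglucosylase 25 (LOC_Os08g14200), which cuts and rejoins wall polymers, had 50.01 and 73.5 RPKM at 11 °C, against 2.13 and 1.03 at 25 °C. In log2 units the rise was 4.61 ± 0.31 (limma adjusted p = 3.1e-05), with each chilled library above each warm one. Its relative 8 (LOC_Os08g13920) had 2.95 and 4.34 RPKM at 11 °C, against 106 and 121 at 25 °C. In log2 units the difference was -4.64 ± 0.27 (limma adjusted p = 1.8e-05), with each chilled library below each warm one.

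The direct comparison of 11 with 13 °C asked which genes separate the severe from the milder treatment. Of the 19429 loci 6894 (35.5%) were called, 3358 (17.3%) higher and 3536 (18.2%) lower at 11 than at 13 °C, with a median log2 difference of -0.02. Cytosolic ribosomal proteins were lower at 11 °C in 118 of 204 genes and higher in 2 (median -0.73), and their summed level was 14592 and 14909 RPKM at 11 °C, 23727 and 24987 RPKM at 13 °C and 8594 and 8652 RPKM at 25 °C. When 1 library of either temperature was left out, 31 to 44 were called lower. Ribosome biogenesis proteins had few calls in this comparison, 6 higher and 8 lower of 91 (14 and 9 under the TMM-type scaling), and so had nuclear transport proteins, 3 higher and 2 lower of 49 (10 and 2 under that scaling). These counts rest on all 4 libraries: without the second 11 °C or the first 13 °C library the higher calls of ribosome biogenesis proteins were lost and 1 nuclear transport protein was higher, and without the first 11 °C or the second 13 °C library 3 and 1 were lower. Starch synthesis was lower in 14 of 22 and higher in 3 (median -1.49). Granule-bound starch synthase 1b had 53.0 and 52.7 RPKM at 11 °C, against 813 and 1239 RPKM at 13 °C, a log2 difference of -4.22 ± 0.29 (limma adjusted p = 1.0e-04), so that 13 °C held more and 11 °C less than 25 °C. The Calvin cycle was lower in 18 of 29 and higher in 1 (median -1.11), with 11 lower without the first 11 °C or without the second 13 °C library. Photosystem and light-harvesting proteins were lower in 22 of 42 (median -0.93), a count of 11 to 14 when any 1 of the 4 libraries was left out.

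Beta-oxidation, which burns fatty acids in peroxisomes, was higher at 11 than at 13 °C in 7 of 9 genes, with the other 2 not called (median 1.60). Against 25 °C 2 of the 9 were higher and 1 was lower, and the lower call was lost when any 1 of the 6 libraries was left out. Peroxisomal thiolase 2 (LOC_Os02g57260) had 164 and 217 RPKM at 11 °C, 43.3 and 48.1 RPKM at 13 °C and 252 and 306 RPKM at 25 °C. Its lowest level was at 13 °C, with a log2 difference of 2.02 ± 0.23 (limma adjusted p = 6.2e-04) for 11 against 13 °C and a limma adjusted p of 0.082 for 11 against 25 °C. Acyl-CoA oxidase 4 (LOC_Os01g06600), the first step, had 42.0 and 59.5 RPKM at 11 °C, 6.38 and 8.83 RPKM at 13 °C and 26.5 and 27.8 RPKM at 25 °C, a log2 difference of 2.58 ± 0.26 (limma adjusted p = 3.3e-04) for 11 against 13 °C. Its call against 25 °C was lost without the second 11 °C library or either 25 °C library. Cysteine-rich receptor-like kinases were higher at 11 than at 13 °C in 18 of 40 and lower in 5 (median 0.71), with 3 lower without either 11 °C library or the second 13 °C library.

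Single genes with the largest differences between 11 and 13 °C are given next, and the size of their differences follows from that choice. The 6 described genes with the largest positive differences that were also higher than at 25 °C were sarcosine oxidase (LOC_Os09g32290), an isoflavone 2'-hydroxylase (LOC_Os03g55230), NADH-dependent glutamate synthase 2, xyloglucan endotransglucosylase 25, crocetin glucosyltransferase 2 (LOC_Os04g12960) and the ubiquitin ligase XB3 (LOC_Os03g16780). The isoflavone 2'-hydroxylase had 38.9 and 53.3 RPKM at 11 °C, 0 and 0.0328 RPKM at 13 °C and 0 and 0.0335 RPKM at 25 °C, a log2 difference of 5.52 ± 0.24 (limma adjusted p = 4.6e-05). Glutamate synthase 2 had 249 and 362 RPKM at 11 °C and 6.72 and 7.50 RPKM at 13 °C, a log2 difference of 5.22 ± 0.25 (limma adjusted p = 4.6e-05). XB3, which binds an immune receptor of rice, had 44.4 and 58.2 RPKM at 11 °C and 0.712 and 1.76 RPKM at 13 °C, a log2 difference of 4.58 ± 0.30 (limma adjusted p = 8.8e-05). At 25 °C XB3 had 2.79 and 3.20 RPKM, and in all 3 genes both 11 °C libraries lay above the other 4.

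The 6 with the largest negative differences that were also lower than at 25 °C were a chloroplast carboxyvinyl-carboxyphosphonate phosphorylmutase (LOC_Os12g08760), beta-sesquiphellandrene synthase (LOC_Os08g04500), farnesyl pyrophosphate synthase 2 (LOC_Os04g56230), folate-biopterin transporter 9 (LOC_Os07g24230), sucrose-phosphatase 1 (LOC_Os01g27880) and a beta-amylase (LOC_Os07g35880). Beta-sesquiphellandrene synthase, which makes a scent sesquiterpene, had 0.469 and 0.651 RPKM at 11 °C, 125 and 188 RPKM at 13 °C and 80.0 and 88.7 RPKM at 25 °C, a log2 difference of -6.63 ± 0.25 (limma adjusted p = 4.6e-05). Farnesyl pyrophosphate synthase 2, of the step before it, had 4.37 and 3.03 RPKM at 11 °C, 140.2 and 188 RPKM at 13 °C and 172 and 199.5 RPKM at 25 °C, a log2 difference of -5.13 ± 0.25 (limma adjusted p = 4.6e-05). Both had high levels at 13 °C and low ones at 11 °C. Sucrose-phosphatase 1, the last step of sucrose synthesis, had 2.08 and 2.32 RPKM at 11 °C, 123 and 149.7 RPKM at 13 °C and 14.3 and 12.5 RPKM at 25 °C, a log2 difference of -5.42 ± 0.22 (limma adjusted p = 4.6e-05). The beta-amylase had 0.684 and 0.976 RPKM at 11 °C, 76.0 and 132 RPKM at 13 °C and 2.43 and 4.38 RPKM at 25 °C, a log2 difference of -5.79 ± 0.34 (limma adjusted p = 7.0e-05). These last 2 peaked at 13 °C, and the call of the beta-amylase against 25 °C was lost without the first 11 °C or the second 25 °C library.

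**Figure D5:**
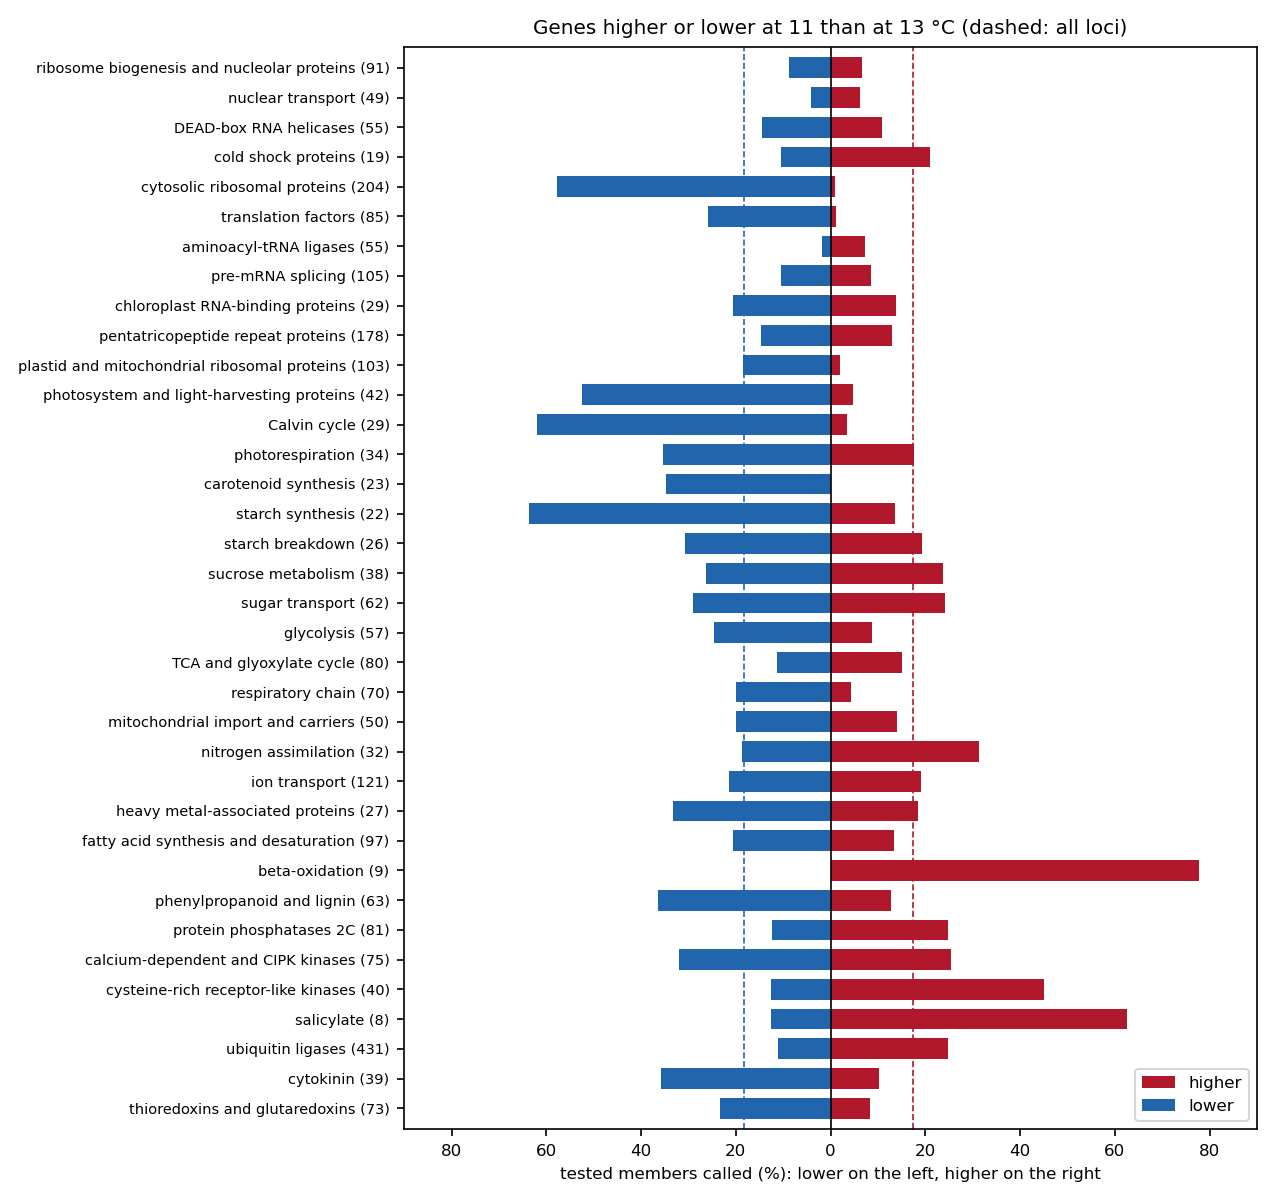
Share (%) of tested members higher (right, red) and lower (left, blue) at 11 than at 13 °C in the same 36 gene lists, with dashed lines at the shares over all loci (17.3% higher and 18.2% lower). Beta-oxidation (77.8% higher of 9) reaches furthest right, and starch synthesis (63.6% lower of 22), Calvin cycle (62.1% of 29) and cytosolic ribosomal proteins (57.8% of 204) furthest left.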

How the data were processed

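The authors' deposited table gives RPKM values per locus and library; reads were aligned with TopHat2 2.0.12, per the submitters' processing notes. The labels' protocols name the NEBNext Ultra RNA kit. The build, the gene models and the counting step, with or without strand, were not given in the sources used here, so antisense and overlapping genes and close paralogs can share reads. Identifiers written in upper case (23650 loci, with no value in any second library) were left out; 9 of them would have passed the filter.

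Loci that reached 1 RPKM in 2 or more of 6 libraries were analysed as log2(RPKM + 1), pseudocount 1, with limma 3.58.1 in R 4.3.3: 1 linear model over all 6 libraries, an empirical Bayes fit with a mean-variance trend, and contrasts 11 minus 25 °C and 11 minus 13 °C, which share the 11 °C libraries. Tests are two-sided, and a gene is called at a Benjamini-Hochberg adjusted p below 0.05 over all 19429 loci. A run on simulated data had few changed genes and independent noise between libraries, unlike these data, and no result of it is used here. Groups of 2 allow no outlier check. RPKM divides by length, so levels may be compared between genes.

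Gene lists come from words in the descriptions and are given by counts and medians, without a set test. Members and lists were chosen with earlier results of these data known. Named genes are the 12 described and called genes that gained and the 12 that lost most mean RPKM, the largest rise and fall per list at a mean of at least 5 RPKM and its highest gene at 25 °C (a selection of these is printed), the 6 highest and 6 lowest at 11 against 13 °C, and enzymes or regulators needed to order a pathway. Alternatives were a pseudocount of 0.1, no filter, an RPKM filter of 5, TMM-type and quantile scaling, the 4 libraries of 11 and 25 °C alone, a replicate block, no trend and leaving out each library; removal of organelle-type reads (the 51 loci found by words and the 37 found by the ratio of first to second libraries) was added after seeing the data. Sequences and promoters were not used here.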

Additional observations from a re-analysis of the deposited data

How the results depend on the processing

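Against 25 °C, the counts of 5568 higher and 4158 lower genes stayed within 1.5 times under the 15 alternatives tried, at 3739 (without the second 11 °C library) to 7618 higher and 2829 to 5862 lower. The TMM-type scaling gave 5759 and 5502, quantile scaling 5483 and 5701, and removing organelle-type reads, an alternative chosen after seeing the data, 7073 and 4242. Against 13 °C, leaving out 1 library gave 1801 to 3387 higher genes (3358 with all) and 1853 to 3611 lower genes (3536 with all). The 1801 higher genes came without the second 11 °C library and 1825 without the first 13 °C library. The lower genes numbered 1998 and 2323 without the first or the second 11 °C library and 1853 without the second 13 °C library. The cause was not tested.

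With a replicate block 5572 genes were higher and 5786 lower at 11 than at 13 °C, and 7618 were higher and 5862 lower than at 25 °C. In the 52 gene lists the block raised 30 of 104 counts of higher or lower members by over 1.5 times against 25 °C and 52 of 104 against 13 °C, and no count changed that far downward. Against 25 °C splicing proteins then had 46 higher and 33 lower, respiratory chain genes 10 and 24, and aminoacyl-tRNA ligases 39 and 4. The labels do not say that the numbers pair libraries, although same-numbered libraries deviated together (correlation across loci of 0.711 for 11 with 13 °C, 0.607 for 11 with 25 °C and 0.667 for 13 with 25 °C), and with 2 libraries a group both deviations are mirror images. The 2 libraries of a group limit precision, and 1 read on a gene of 1 kb was worth 0.0533 to 0.0626 RPKM.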

Other observations

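Lists of protein care and turnover held genes called in both directions at 11 °C, and the genes named were mostly picked as the largest rise or fall of a list. Of 17 heat stress factors 7 (41.2%) were higher and 4 (23.5%) lower than at 25 °C, beside 28.7% and 21.4% of all loci. Factor C-1b (LOC_Os01g53220) had 75.1 and 61.0 RPKM at 11 °C, against 0.436 and 0.521 at 25 °C. Each chilled library was higher than each warm one, a log2 difference of 5.54 ± 0.24 (limma adjusted p = 8.1e-06). Factor B-2c (LOC_Os09g35790) had 0 and 0.069 RPKM at 11 °C, against 9.06 and 7.95 at 25 °C. Each chilled library was lower than each warm one, a log2 difference of -3.20 ± 0.20 (limma adjusted p = 2.2e-05). Among 67 dnaJ co-chaperones, which hand clients to HSP70, 15 were higher and 19 lower, with 7 higher without the second 11 °C library and 12 lower without the first. DnaJ homolog B6-A (LOC_Os03g18870) had 82.9 and 116 RPKM at 11 °C, against 0.0541 and 0.565 at 25 °C. That was a rise of 6.27 ± 0.29 log2 units (limma adjusted p = 8.6e-06), present in both chilled libraries. The chloroplast dnaJ 11 (LOC_Os06g50230) had 6.03 and 6.37 RPKM at 11 °C, against 366 and 503 at 25 °C. Warm levels were higher in both libraries, and the log2 difference was -5.90 ± 0.23 (limma adjusted p = 6.9e-06). Of 34 plastid proteases 11 were higher and 10 lower, with 7 higher without the second 11 °C library and 4 or 6 lower without the first 11 °C or the second 25 °C library. EGY1 (LOC_Os03g57840), a membrane protease needed for chloroplast development in Arabidopsis, had 139 and 186 RPKM at 11 °C, against 6.70 and 8.23 at 25 °C. Warm levels were lower in both libraries, and the log2 difference was 4.27 ± 0.25 (limma adjusted p = 1.9e-05).

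Homeobox and RNA decay genes had shares of increases near the 28.7% of all loci. Of 47 homeobox factors 16 (34.0%) were higher and 6 lower, with 10 higher without the second 11 °C library and 3 lower without the first 11 °C or the first 25 °C library. HOX4 (LOC_Os09g29460) had 166 and 157 RPKM at 11 °C, against 30.8 and 19.9 at 25 °C. Both chilled libraries exceeded both warm ones, a log2 difference of 2.65 ± 0.25 (limma adjusted p = 1.2e-04). The histone demethylase JMJD5 (LOC_Os09g31380), which acts in the clock of Arabidopsis, had 30.1 and 42.3 RPKM at 11 °C, against 0.994 and 0.774 at 25 °C. It rose by 4.29 ± 0.27 on the log2 scale (limma adjusted p = 2.6e-05), with no overlap between temperatures. Of 40 RNA decay genes 11 (27.5%) were higher and 3 lower, with 1 lower without the first 11 °C library and 7 or 8 lower under the other scalings. CCR4-associated factor 1 homolog 11 (LOC_Os04g58810), of the complex that shortens poly(A) tails, had 54.1 and 67.0 RPKM at 11 °C, against 1.25 and 1.39 at 25 °C. The 11 °C pair lay above the 25 °C pair, with a log2 difference of 4.72 ± 0.24 (limma adjusted p = 1.1e-05). In osmolyte metabolism (trehalose, raffinose and proline) 5 of 27 genes (18.5%) were higher and 12 (44.4%) lower, beside 28.7% and 21.4% of all loci. Lower genes numbered 6 or 7 without either 11 °C library or the first 25 °C library. Trehalose-phosphate synthase 10 (LOC_Os09g20990) had 190 and 226 recovered reads at 11 °C, against 928 and 1029 at 25 °C. Among the few higher, a probable raffinose synthase described as galactinol-sucrose galactosyltransferase (LOC_Os08g38710) had 5.99 and 10.6 RPKM at 11 °C, against 1.03 and 1.28 at 25 °C. Chilled and warm libraries did not overlap, and the rise was 2.06 ± 0.28 log2 units (limma adjusted p = 6.5e-04). Of 72 ABC transporters 13 were higher and 26 lower, with 4 or 5 higher without the second 11 °C or the first 25 °C library. Family member B10 (LOC_Os01g50100) had 48.0 and 62.2 RPKM at 11 °C, against 0.998 and 1.27 at 25 °C. Transcript was higher in both chilled libraries, by 4.71 ± 0.26 log2 units (limma adjusted p = 1.6e-05). Member B21 (LOC_Os05g04610) had 7.35 and 8.44 RPKM at 11 °C, against 90.3 and 87.9 at 25 °C. Both chilled libraries fell short of both warm ones, a log2 difference of -3.34 ± 0.21 (limma adjusted p = 2.4e-05).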
